A study of Homo sapiens with 3 samples.

Results

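Keratins are the intermediate filament proteins of epithelial cells. Every keratin filament pairs an acidic type I keratin with a basic or neutral type II keratin, and the pair in use differs between epithelia. Simple epithelia such as the colon are known for the type II keratin KRT8 with the type I keratins KRT18, KRT19 and KRT20, whereas KRT10, KRT13, KRT15 and KRT17 are known mainly from stratified epithelia and skin appendages. KRT20 is a known marker of differentiated intestinal cells.

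The signal of 10 epithelial keratin genes, KRT7, KRT8, KRT10, KRT13, KRT15, KRT17, KRT18, KRT19, KRT20 and KRT23, was examined here in HT29 cells, an established line of human colon adenocarcinoma. These 10 genes were chosen by symbol out of 53 keratin genes on the arrays and 21610 genes in all, and they carried 14 probes. The choice was made with the log2 signal differences between these same arrays already known, so those differences are given as a description.

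All cells came from the same line, and the labels name no drug or other agent. The condition labelled 2D was HT29 on tissue culture polystyrene (TCP), the usual flat plastic. The condition labelled chitosan was HT29 on a membrane of chitosan, a polysaccharide made from chitin (CS), and chitosan_HA was HT29 on a chitosan membrane grafted with hyaluronan (CSHA). Cyanine-3 labelled cRNA from each condition was hybridized to 1 array, so each condition is 1 sample of 1 cell line. Without replicates, no difference between substrates could be tested or checked against a second culture. Both membranes were compared with the same TCP array, so that the differences from TCP share its error.

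Values below are the background-corrected spot signal, or its log2 value minus the 75th percentile of the array. This percentile was 354 for TCP, 423 for CS and 337 for CSHA, so raw signals of the 3 arrays are not directly comparable and differences are given on the shifted scale. The error given as ± is the spread among spots of repeated probes of like brightness, combined for the 2 arrays of a difference. It contains no spread between cultures. The scanner software's own error of a spot, combined in the same way, lay between 0.20 and 0.28 for the keratins' differences. Of 50599 probes, 48.6% were well above background for TCP, 51.1% for CS and 49.9% for CSHA, and 0 spots were saturated. In total RNA from a whole culture, fewer cells with a transcript and less of it per cell cannot be told apart.

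The sample label was checked against markers. Of 14 colon epithelial markers, 12 were well above background on TCP and 14 on each membrane, with EPCAM at signals of 42411, 54195 and 54916 in the order TCP, CS, CSHA. Of 14 stromal and immune markers with a probe, 7 were well above background on TCP, 4 on CS and 6 on CSHA. Collagen and matrix genes COL1A1, COL1A2, COL3A1, DCN and LUM were not on any array, while PECAM1, VWF, PTPRC and CD14 were on all of them. Of 15 stratified squamous markers, 6 were well above background on every array, while TP63, IVL, DSG3 and DSC3 were not on any.

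Against TCP, KRT23 was higher and KRT13 was lower by more than 2-fold on both membranes, and none of the other 8 keratins passed 2-fold on either. On CS, 1 of 10 keratins was at least 2-fold higher, beside 1.37% of all 14462 genes compared, and 1 of 10 was at least 2-fold lower, beside 1.92%. On CSHA, 1 of 10 was at least 2-fold higher, beside 3.02% of 14623 genes, and 1 of 10 was at least 2-fold lower, beside 3.98%. These counts used the contrast with which the genes were chosen, so nothing is read from the comparison with all genes. With the arrays scaled to spike-in probes, 12.5% of all genes passed 2-fold upward and 1.21% downward on CSHA, since that scaling raised the median of all genes there by 0.44. The median keratin difference was -0.02 on CS and -0.02 on CSHA, where the median of all genes was 0.04 and 0.13. The keratins lay on both sides of 0. On CS 4 were above TCP and 6 below, where the share of all genes above TCP was 56.8%. On CSHA 5 were above and 5 below, where that share was 61.7%. Nothing is read from these shares either. The difference was larger than the spot error for 8 of 10 on each membrane. KRT7 and KRT10 on CS, and KRT17 and KRT19 on CSHA, lay within it, so their side of 0 is not settled.

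**Figure D1:**
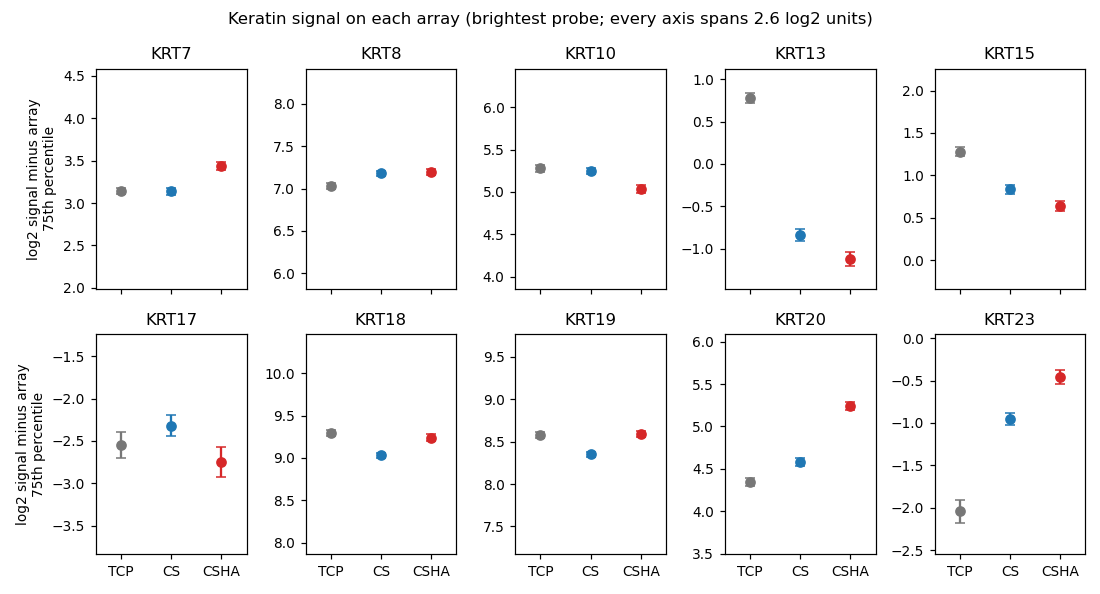
Log2 signal minus the array's 75th percentile (y axis) of the brightest probe of each keratin on TCP, CS and CSHA (x axis), 1 point per array, with the SD among spots of similarly bright repeated probes as the bar. KRT13 and KRT15 were highest on TCP, KRT20 and KRT23 were highest on CSHA, and the remaining 6 keratins stayed within 0.43 log2 units across the 3 arrays.

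Among the type II keratins, KRT8, the partner of KRT18 in simple epithelia, had a signal of 46340 on TCP, 61314 on CS and 49595 on CSHA. After the shift it was 0.15 ± 0.05 higher on CS and 0.17 ± 0.05 higher on CSHA on the log2 scale. Both lay within the software's error of 0.20, and they depended on the probe. KRT8 was read by 3 probes, and both dimmer ones lay lower on CS, with log2 differences of -0.07 and -0.23. On CSHA they differed from TCP by 0.05 and -0.04. The mean over the KRT8 probes accordingly lay below TCP on CS, at -0.05. KRT7, a simple-epithelial keratin that is typical of glands and ducts, gave signals of 3123 on TCP, 3722 on CS and 3650 on CSHA. Its difference from TCP was -0.00 ± 0.06 on CS and 0.29 ± 0.06 on CSHA, so that the pair of type II keratins had a median difference of 0.07 on CS and 0.23 on CSHA.

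KRT18 and KRT19, type I keratins of simple epithelia, lay slightly lower on CS. KRT18 had a signal of 222702 on TCP, 220938 on CS and 203856 on CSHA, a log2 difference of -0.27 ± 0.05 on CS and -0.06 ± 0.05 on CSHA, the latter turning to 0.38 with spike-in scaling. KRT19 had a signal of 134950 on TCP, 137932 on CS and 130318 on CSHA, with a difference of -0.22 ± 0.05 on CS and 0.02 ± 0.05 on CSHA. The raw signals of the 3 arrays were near each other, and the differences come with the shift of the array percentiles. The second KRT18 probe read 83007, 78923 and 49972 in the same order of arrays. Its difference was -0.33 on CS and -0.66 on CSHA, so the probes of KRT18 agreed in direction on both membranes and disagreed in size on CSHA.

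Probes of pseudogenes, copies of the keratin genes with near-identical sequence, can share transcripts with them on an array. The probe of KRT18P55 read 80790 on TCP, 70338 on CS and 41914 on CSHA, a difference of -0.46 and -0.88. The probe of KRT19P2 read 5421, 5464 and 4153, a difference of -0.24 and -0.31. On CS both lay lower, as KRT18 and KRT19 did, while on CSHA the KRT19 probe was at 0.02. KRT18 and KRT19 values are therefore uncertain in size on CSHA, and probe sequences were not used here.

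KRT20 was lowest on TCP and highest on CSHA. It read 7187 on TCP, 10133 on CS and 12765 on CSHA, so that both membranes lay above the plastic. The log2 difference was 0.24 ± 0.06 on CS, 1.18-fold, and 0.90 ± 0.06 on CSHA, 1.86-fold, which did not reach 2-fold. With spike-in scaling the CSHA value passed 2-fold, at 1.33. CSHA was also higher than CS, by 0.66 ± 0.07, or 1.58-fold. Among all genes, KRT20 stood at place 3036 from the highest on CS and at place 568 on CSHA.

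KRT23, a type I keratin of epithelia, had the largest gain of the 10 genes. The probe read 86.0 on TCP, 218 on CS and 246 on CSHA. Both membranes lay above the plastic. The log2 difference was 1.09 ± 0.16 on CS, 2.13-fold, and 1.59 ± 0.16 on CSHA, 3.0-fold. It held place 167 from the highest on CS and place 149 on CSHA, and CSHA lay 0.50 ± 0.11 above CS. On CS the value fell short of 2-fold with normexp background correction, at 0.66, and in the deposited values, at 0.65. A second KRT23 probe, with signals of 16.3, 21.7 and 21.1, was not well above background on any array and gives no value.

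The promoters of 3 of the 10 keratins, KRT8, KRT10 and KRT20, were in the RefSeq set used (GRCh38.p14, 250 bases before to 50 after the annotated start), and those of KRT20 and KRT10 are printed because they hold the letters TTTAT. These letters, with ATAAA on the other strand, are the core of sites bound by CDX homeodomain proteins, and CDX1 is known to act on KRT20. Capitals mark the matches, and both genes lie on the minus strand of chromosome 17.
KRT20 (chr17:40885193-40885492): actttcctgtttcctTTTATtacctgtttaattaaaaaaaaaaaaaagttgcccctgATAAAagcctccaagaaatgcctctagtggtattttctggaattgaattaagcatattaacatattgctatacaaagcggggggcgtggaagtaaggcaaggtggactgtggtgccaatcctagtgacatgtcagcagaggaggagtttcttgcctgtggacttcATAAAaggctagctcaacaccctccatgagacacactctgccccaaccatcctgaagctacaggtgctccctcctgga
KRT10 (chr17:40822565-40822864): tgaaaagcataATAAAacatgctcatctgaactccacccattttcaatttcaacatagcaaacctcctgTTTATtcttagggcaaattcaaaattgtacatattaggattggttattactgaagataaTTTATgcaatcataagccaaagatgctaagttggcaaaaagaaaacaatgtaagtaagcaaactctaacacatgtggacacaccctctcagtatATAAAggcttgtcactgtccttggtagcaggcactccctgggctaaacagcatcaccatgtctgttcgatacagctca
KRT20 held 3 matches, 235, 193 and 28 bases before the start, and KRT10 held 4, at 239, 181, 122 and 28. KRT8 held 0. At least 1 match occurred in 34.9% of 35116 promoters, and at least 3 in 6.18%. The match of KRT10 at 28 overlapped the letters TATAAA, which 11.5% of promoters hold. The match of KRT20 at the same distance lies in the letters CATAAA, which differ from TATAAA in the first letter only. A match is a description of the letters and not a binding site, and its part in the signals was not tested.

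The signal of the CDX genes is given beside KRT20 because their proteins act on such sites, and these 2 genes were chosen after their values were seen. CDX2, the homeodomain regulator of intestinal identity, read 371 on TCP, 838 on CS and 650 on CSHA, a log2 difference of 0.92 and 0.88. CDX1 read 210, 243 and 219, a difference of -0.04 and 0.13. KRT10, with 4 matches, differed from TCP by -0.03 on CS and -0.24 on CSHA. The part of the CDX genes in the keratin signals was not tested.

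The keratins known from stratified epithelia included the largest loss of the 10 genes. KRT13, a suprabasal keratin of mucosal squamous epithelia, read 606 on TCP, 236 on CS and 155 on CSHA. Both membranes lay below the plastic. The log2 difference was -1.61 ± 0.10 on CS, 3.06-fold lower, and -1.90 ± 0.11 on CSHA, 3.73-fold lower. It stood at place 118 from the lowest of all genes on CS and at place 53 on CSHA. Under all 9 other ways of processing KRT13 stayed more than 2-fold lower than on TCP, between -1.66 and -1.34 on CS and between -1.96 and -1.46 on CSHA. Changing the filter on dim signal or averaging a gene's probes could not alter the KRT13 values. KRT15, the keratin of basal cells of squamous epithelia, read 859 on TCP, 752 on CS and 526 on CSHA. Its log2 difference was -0.45 ± 0.07 on CS, 1.36-fold lower, and -0.64 ± 0.08 on CSHA, 1.56-fold lower, the latter shrinking to -0.20 with spike-in scaling.

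KRT10, which fills suprabasal epidermal cells, read 13721 on TCP, 16047 on CS and 11052 on CSHA. Its difference was -0.03 ± 0.06 on CS and -0.24 ± 0.06 on CSHA, the latter turning to 0.19 with spike-in scaling. KRT17, a keratin of hair follicles and of injured or basal epithelium, was dim, at 60.5 on TCP, 84.4 on CS and 50.1 on CSHA. Its difference was 0.22 ± 0.19 on CS and -0.20 ± 0.23 on CSHA. Both lay within the software's errors of 0.25 and 0.28. Of 3 probes of the pseudogene KRT17P5, 2 were not well above background on any array, and the third, with signals of 218, 222 and 120, differed by -0.23 and -0.79, and that of KRT42P, another type I keratin pseudogene, by -0.21 and -0.45. Whether KRT17 shares labelled RNA with such copies was not tested.

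**Figure D2:**
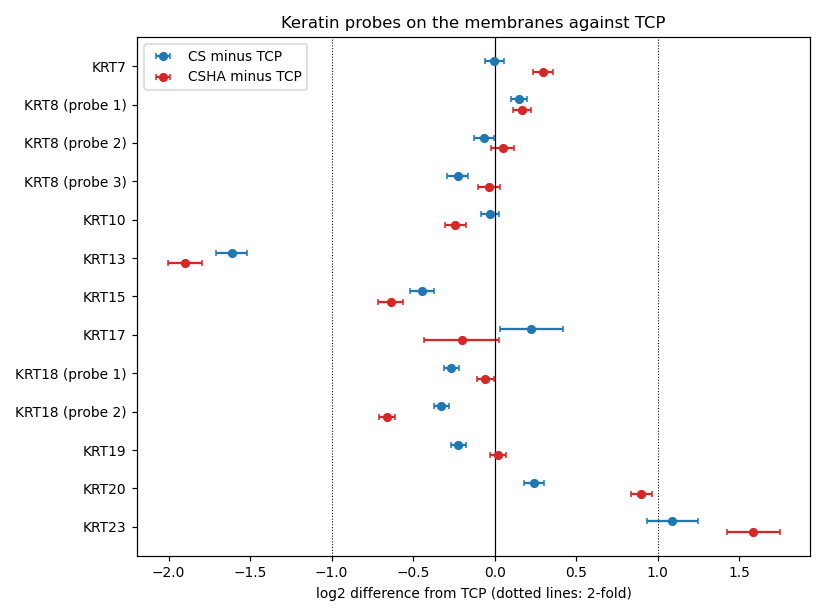
Log2 difference from TCP (x axis) of each of the keratin probes (y axis) on CS and CSHA, with the spot error as bars and the 2-fold limits as dotted lines. KRT13 lies left of the lower limit on both membranes, KRT23 right of the upper limit, and the probes of KRT8 and KRT18 spread over values of 1 gene.

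Between the 2 membranes no keratin differed by 2-fold. With CSHA set against CS, 0 of 10 keratins were at least 2-fold higher, beside 2.27% of 14600 genes, and 0 of 10 were at least 2-fold lower, beside 2.15%. Under quantile normalization these shares were 1.65% and 2.54%, and with spike-in scaling 7.0% and 0.804%. The median keratin difference was 0.11, against 0.07 for all genes. KRT20 and KRT23 were the highest of the 10, at 0.66 and 0.50, and KRT17 and KRT13 were the lowest, at -0.43 ± 0.22 and -0.29 ± 0.11. KRT7 and KRT19 lay 0.30 and 0.24 higher on CSHA, while KRT8 was within 0.02 and KRT10 and KRT15 lay lower, at -0.21 and -0.19. KRT18 had no settled direction, since its brighter probe gave 0.21, its second probe -0.33 and their mean -0.06. With spike-in scaling, KRT10, KRT13 and KRT15 lay higher on CSHA than on CS, by 0.17, 0.10 and 0.19.

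**Figure D3:**
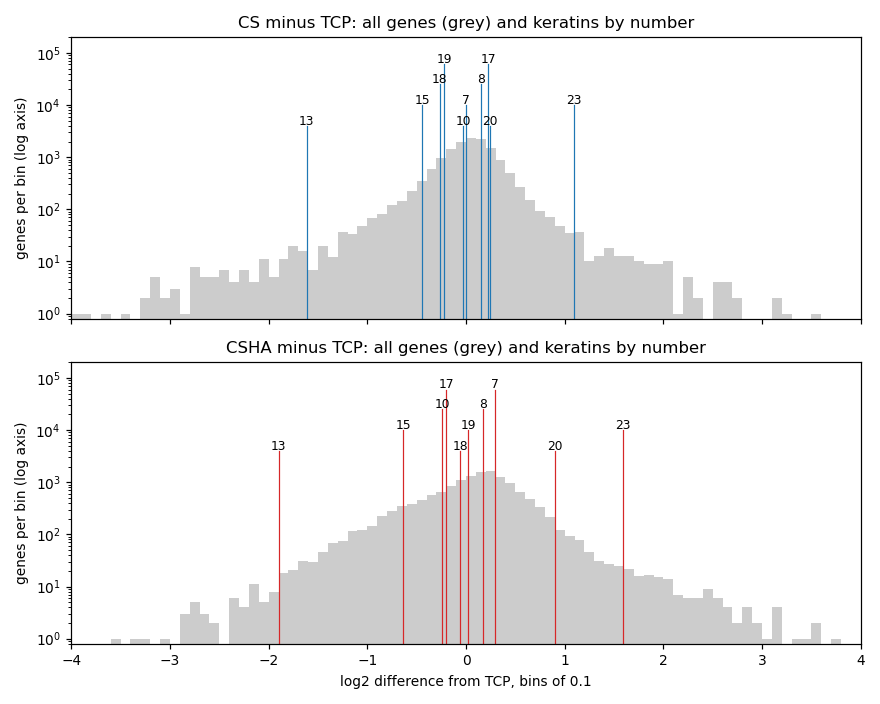
Number of genes (y axis, log scale) by log2 difference from TCP (x axis, bins of 0.1) on CS and on CSHA, with the 10 keratins marked by their number. KRT13, at -1.61 and -1.90, and KRT23, at 1.09 and 1.59, stand toward the tails on both membranes, and KRT20 moves outward on CSHA.

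The order of the keratin genes along the chromosomes, which was looked at after the values were known, is given as a description. Of 28 keratin genes in the type I cluster of chromosome 17, 7 are described here, and 13 of the 28 were well above background on every array. KRT20 and KRT23 are neighbours in RefSeq order, and both were higher on both membranes. KRT13 and KRT15 are neighbours as well, and both were lower. Next to KRT20, on its other side, KRT12 was higher by 0.34, a value of 0.07 in the deposited values, and 0.99, whereas KRT39 beyond KRT23 differed by -0.50 and 0.03. KRT19, which follows KRT15, differed by -0.22 and 0.02. Elsewhere in the cluster, KRT33A (0.61 and 0.19) and KRT31 (0.28 and 0.38) were also higher on both membranes. Both were dim, with signals of 28.1, 51.1 and 30.5 for KRT33A and 39.6, 57.5 and 49.1 for KRT31. The KRT33A value on CS was 0.03 in the deposited values. KRT9 (-0.09 and -0.01), KRT10 (-0.03 and -0.24) and KRT14 (-0.28 and -0.05) lay below 0 on both, with some values close to 0. KRT10 turned to 0.04 on CS with normexp, and KRT14 to 0.39 on CSHA with spike-in scaling. On chromosome 12, KRT8 and KRT18 are neighbours and belong to opposite types, and they differed from TCP by 0.15 and -0.27 on CS and by 0.17 and -0.06 on CSHA.

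**Figure D4:**
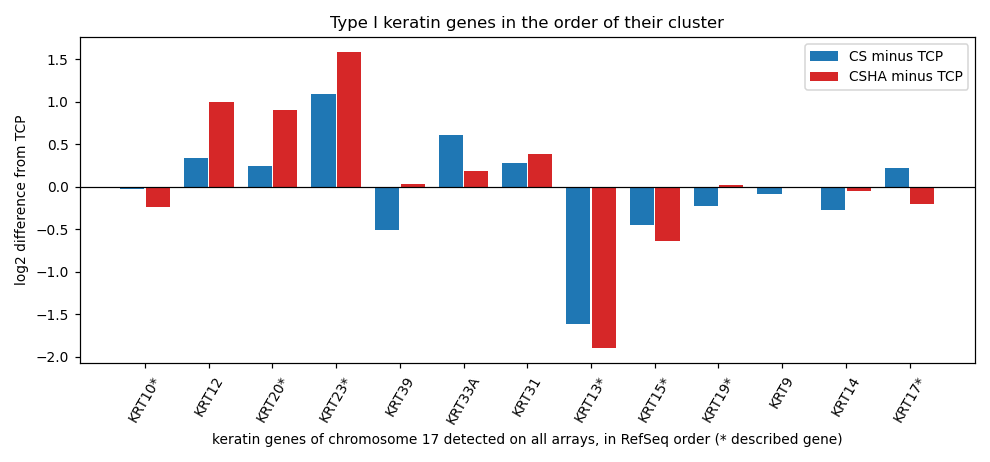
Log2 difference from TCP (y axis) on CS and CSHA of the 13 keratin genes of chromosome 17 detected on every array, placed in RefSeq order (x axis) with the genes described here starred. KRT12, KRT20 and KRT23 stand together above 0 on both membranes and KRT13 and KRT15 together below it. KRT31 and KRT33A also lie above 0 on both, and KRT9, KRT10 and KRT14 below it, with some of their values close to 0.

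Most other keratins were not detected. Of 23 other type II keratins with a probe, 8 were well above background on every array, and of 20 other type I keratins, 6. The 11 type II genes compared on CS had a median difference of -0.03, and the 10 on CSHA 0.03. KRT79 was at least 2-fold higher on CS, by 1.17, and at least 2-fold lower on CSHA, at -1.10, with signals of 64.8 on TCP, 174 on CS and 28.7 on CSHA. Neither value reached 2-fold with normexp, at 0.67 and -0.48, or in the deposited values, at 0.65 and -0.54, and the CSHA value also fell short with spike-in scaling, at -0.67. KRT4, a mucosal partner of KRT13, was at least 1.11 higher on CSHA, and KRT6B, a keratin of activated epidermis, was lower on CS, with -1.05 as the bound. With normexp these values were 0.61 and -0.71, both under 2-fold. The type I genes compared, 7 on CS and 8 on CSHA, had medians of 0.28 and 0.28, and KRT32 was at least 1.27 higher on CSHA, a value of 0.69 with normexp.

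Genes that link keratins to desmosomes and other structures or handle them were described as a list of 15, chosen with earlier results known. Of 14 compared on CS, 0 were at least 2-fold higher or lower, with a median of -0.14. Of 15 compared on CSHA, 2 were higher and 1 was lower, with a median of 0.08. These counts use the brightest probe, and a dimmer HSPB1 probe was at -1.43 on CSHA where the brightest gave 0.14. Periplakin (PPL), a cytolinker of the plakin family that binds keratins, was lower, at -0.70 on CS and -1.35 on CSHA, with signals of 1165, 854 and 435, and the CSHA value was under 2-fold with spike-in scaling, at -0.91. KLHL24, an adaptor of a ubiquitin ligase that acts on keratin, was higher by 0.96 and 1.38, with signals of 294, 680 and 728. PKP1, a desmosomal plaque protein, was at least 1.79 higher on CSHA. Among intermediate filament genes other than keratins, 11 could be compared on CS, 0 of them at least 2-fold in either direction by the brightest probe, with a median of -0.11. On CSHA 12 could be compared, with a median of 0.19, and SYNM, a muscle-type filament protein, was at least 1.81 higher, a value of 0.96 with normexp. Some probes of 1 gene disagreed. A dimmer NES probe was at -1.07 on CS, where the brightest gave -0.06. The LMNA probes gave 0.17, 0.48 and -0.77 on CSHA.

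Among 24 regulators of epithelial genes, 15 of 18 compared on CS were higher and 3 lower, beside 56.8% of all genes higher, with a median of 0.19 against 0.04 for all genes, and 0 passed 2-fold. On CSHA, 17 of 19 were higher and 2 lower, beside 61.7% of all genes higher, with a median of 0.39 against 0.13. There, 2 of the regulators passed 2-fold upward. At least 2-fold higher were 1.37% of all genes on CS and 3.02% on CSHA. ZEB1, detected on CSHA alone with a signal of 30.1, could only be counted as higher. Its bound of 0.39 is the median of the 19. The list was chosen with earlier results of these data known, so nothing is read from the comparison with all genes. GRHL3, a grainyhead factor of epithelial barrier genes, was higher by 0.48 and 1.28, and HNF4A, a nuclear receptor of intestine and liver, differed by -0.06 on CS and 1.01 on CSHA. HNF4A was dim, with signals of 31.5, 36.1 and 60.3, and its CSHA value was 0.42 both with normexp and in the deposited values. HNF4G, a close relative, was higher by 0.995, just under 2-fold, and 0.82. SNAI1, a repressor of epithelial genes, differed by -0.28 and -0.21, the latter turning to 0.22 with spike-in scaling.

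The colon epithelial markers are described beside KRT20. Their list was chosen with earlier results of these data known, so nothing is read from the comparison with all genes. All 14 were above TCP on CS, 4 of them at least 2-fold, with a median of 0.54. Of all genes compared on CS, 56.8% were higher and 1.37% at least 2-fold higher, with a median of 0.04. On CSHA 12 were higher and 2 lower, 5 of them at least 2-fold higher, with a median of 0.75, beside 61.7%, 3.02% and a median of 0.13 for all genes. The 2 lower were CLDN7, at -0.06, and LGALS4, at -0.20. A dimmer CLDN7 probe gave 0.70 on CSHA, and LGALS4 turned to 0.24 there with spike-in scaling. In the order TCP, CS, CSHA, the raw signals of the 14 markers summed to 180702, 268003 and 235167, of which CLDN4 gave 63651, 83864 and 71496. These sums are not shifted by the array percentile and are not directly comparable between arrays. CEACAM5, CEACAM6 and PHGR1, which mark mature colonocytes or tumours of the colon, were higher by 1.57, 1.07 and 1.53 on CS and by 2.16, 1.86 and 2.21 on CSHA. FABP1 and GPA33, not well above background on TCP, were at least 0.88 and 1.62 higher on CS and 1.01 and 2.01 higher on CSHA. With normexp the same values were 0.42 and 0.58 on CS and 0.57 and 0.90 on CSHA, all under 2-fold. Detected on the membranes alone, FABP1 and GPA33 could only be counted as higher. GPA33 is among the 2-fold genes on CS, and both are among them on CSHA. The part of these markers in the KRT20 and KRT23 differences was not tested.

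The stratified squamous markers, beside KRT13 and KRT15, gave 6 genes to compare on each membrane. By the brightest probe, 0 were at least 2-fold in either direction, with medians of -0.25 and 0.29. The shares of all genes were 1.37% higher and 1.92% lower on CS, and 3.02% and 3.98% on CSHA. The probes of SPRR1A disagreed. A dimmer one, with signals of 82.3 on TCP, 178 on CS and 232 on CSHA, was higher by 0.85 and 1.57. The brightest gave -0.18 and 0.17. The raw signals of all 15 markers summed to 9032, 9160 and 7029 in the same order of arrays, of which S100A2 gave 6964, 6698 and 4739. S100A2 was at -0.31 and -0.49, and SPRR3 was higher by 0.61 and 0.89. The raw signals of the 14 stromal and immune markers summed to 1188, 1626 and 1922, dim ones included. CD14, a monocyte marker, gave 834, 1408 and 1633 of these sums, and the others together 354, 218 and 289. VIM, the intermediate filament gene of mesenchymal cells, was dim, with a signal of 24.7 on TCP, and was not well above background on either membrane. CD14 was higher by 0.50 and 1.04, the latter under 2-fold with normexp, at 0.95. CD3E was lower, with -2.78 as the bound on CS and -1.75 on CSHA, which shrank to -1.08 and -0.57 with normexp, and PDGFRB was at least 1.98 higher on CSHA. The part of these markers in the keratin differences was not tested.

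**Figure D5:**
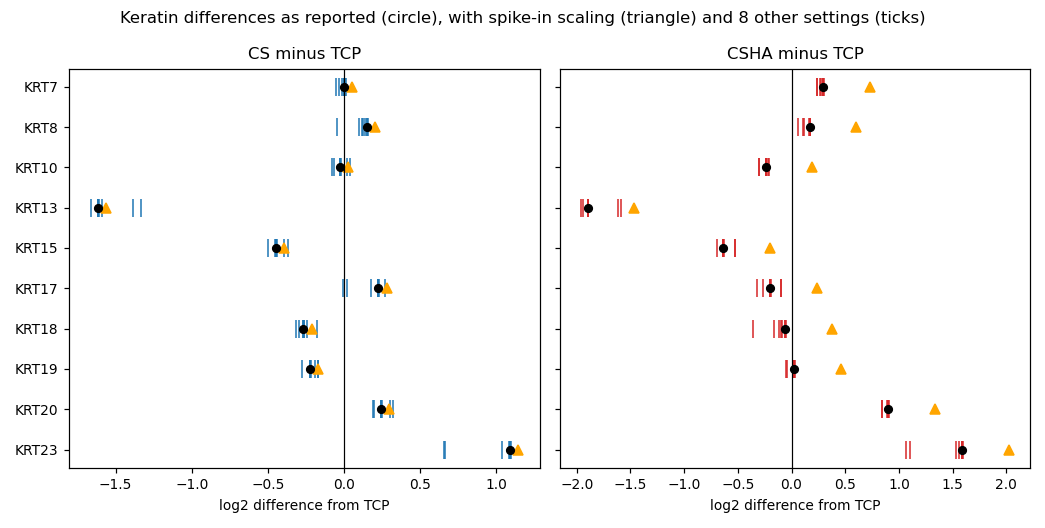
Log2 difference from TCP (x axis) of each keratin (y axis) as reported (circle), with spike-in scaling (triangle) and under 8 other settings (ticks), on CS and CSHA. KRT13, KRT15, KRT20 and KRT23 keep their side of 0 under every setting plotted, and spike-in scaling moves the CSHA values upward together. The settings of the filter on dim signal and the averaging of probes could not move KRT13, KRT15, KRT20 or KRT23.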

How the data were processed

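RNA of HT29 cells was hybridized in 1 colour to 1 array per substrate, all on 1 slide. The authors deposited the spot intensity and flags given by the scanner software (Feature Extraction 10.7.3.1 per the file headers, which also name an older build than the RefSeq table), and a table of log2 values. The deposited log2 values equal the log2 median spot signal plus a constant per array and per spot, with no background subtracted, and served as an alternative. The study's methods name a shift to the 75th percentile, with a floor, for raw signal. Here both were applied to the processed signal, which is corrected for background, with a floor of 1.

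Spots of controls and spots with an outlier flag were dropped before the mean over each probe's spots was taken. Accessions of 30000 of 50599 probes (59.3%) matched a symbol in the RefSeq table of GRCh38.p14, used for names, gene order and promoters. The probe with the highest mean signal stood for a gene. A comparison needed a signal well above background on either array. Where only 1 array had it, the difference is a bound, and the dim array entered with its own signal or its lowest detected signal, whichever was higher (lowest detected signal 24.1, 21.5 and 22.6 for TCP, CS and CSHA). The spot error was the median SD among the 10 spots of the 25 repeated probes nearest in brightness, with a median of 0.054, 0.047 and 0.057 for TCP, CS and CSHA. The number of arrays limits the precision, and the spot error does not contain the spread between cultures.

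A single array stood for each condition, so genes were counted at 2-fold or more and not tested. The members and lists were chosen with earlier results of these data known. Named genes were the 10 keratins, the highest and lowest gene of each other list, genes at least 2-fold from TCP and defining markers. No gene was selected for a pattern like a keratin's. CDX1 and CDX2 were added after their values were seen. On simulated arrays in which 200 of 13946 genes were changed by 1.5 on the log2 scale, 199 were recovered and 2 unchanged genes were counted. The change exceeded the log2 limit of 1, and the arrays were simulated from TCP alone. The simulation therefore checks the counting only and says nothing of the spread between cultures. Alternatives covered normexp with an offset of 50, quantile, median, detected-probe and spike-in scaling, the filter on dim signal, averaging of a gene's probes, the deposited values, and thresholds of 1.5-fold and 3-fold. Calculations used Python 3.11.15 with pandas 2.3.3, numpy 2.4.6 and matplotlib 3.10.9, and normexp used limma 3.58.1 under R 4.3.3.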

Additional observations from a re-analysis of the deposited data

Results flagged for a closer look

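Among those of the 41 other named genes that were well above background on all arrays, there were 4 in which CS and CSHA lay on opposite sides of TCP beyond the spot error, and the difference was not tested. KRT79, a type II keratin, was 1.17 above TCP on CS and -1.10 from it on CSHA, which placed CSHA at -2.27 from CS. LMNB1, a nuclear lamin, was at -0.94 and 0.20, a difference of 1.14 between the membranes. TGM1, a crosslinking enzyme of cornified cells, was at -0.34 and 0.35, a difference of 0.68. LGALS4, a galectin of intestinal cells, was at 0.54 and -0.20, a difference of -0.74, and its value on CSHA turned to 0.24 with spike-in scaling. None of the 10 keratins showed such a pattern.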

How the results depend on the processing

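Each condition had 1 array, so no replicate could be left out. No paired analysis was possible because each condition had 1 sample. Of 270 differences of single keratins over 9 settings, 209 moved by less than the spot error and 61 by more. The sign changed in 18, including 8 where both the reported value and the move were beyond the spot error. The settings that changed the filter on dim signal left every keratin value as reported, since all 10 were detected on every array. Averaging of probes could change only KRT8 and KRT18. The 209 therefore include values that could not move. Of 685 differences of 41 other named genes, 540 moved by less and 145 by more, the sign changed in 10, including 2 of that kind. The filter settings likewise left other named genes detected on every array unchanged. The number of keratins at least 2-fold higher on CS was 0 with a threshold of 3-fold, with normexp and in the deposited values. KRT23 was the gene lost. At 2-fold, 0.396% of all genes were higher on CS with normexp and 0.474% in the deposited values. On CSHA, 2 keratins were higher and 2 lower at 1.5-fold, and 2 were higher with spike-in scaling, beside 12.5% of all genes. Between the membranes, 1 was higher on CSHA at 1.5-fold and 1 with spike-in scaling, beside 7.0% of all genes. Shares of all genes at 1.5-fold and 3-fold are not given, so nothing is read from the counts at those thresholds. The median keratin difference on CSHA was -0.109 with quantile normalization, 0.417 with spike-in scaling and -0.0917 with the mean over probes. Between the membranes it was 0.00386, 0.497 and 0.0230 under the same settings. Spike-in scaling raised the median of all genes by 0.44 on CSHA, and the cause of the remaining shifts was not tested. On CS, KRT17 turned to -0.00656 in the deposited values and KRT8 to -0.0484 with the mean over probes. With spike-in scaling, CSHA against TCP gave 0.194 for KRT10, 0.378 for KRT18, 0.236 for LGALS4 and 0.224 for SNAI1. In the same scaling CSHA against CS gave 0.170 for KRT10, 0.0970 for KRT13 and 0.191 for KRT15, and with the mean over probes -0.0624 for KRT18. KRT13, KRT15, KRT20 and KRT23 kept their direction from TCP on both membranes under all 9 settings. The filter settings and the averaging of probes could not change the values of these genes. Signal over background limits KRT17 and the second KRT23 probe.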
